A study of Mus musculus with 12 samples.

Results

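The genes described here were 10 genes of inflammasome assembly and pyroptosis, namely *Nlrp3*, *Nlrp1b*, *Nlrc4*, *Aim2*, *Naip5*, *Pycard*, *Casp1*, *Casp4*, *Gsdmd* and *Nek7*. They were matched by their mouse gene symbol to the identifiers counted in each library, and all 10 were found among the 54446 genes counted. Every member also passed the filter on low counts in each comparison. The libraries came from CD11b+ myeloid cells sorted out of MC38 tumors, which are grown in mice from a colon carcinoma cell line. The mice were the *Ythdf2* fl/fl animals, without Cre, that the study calls WT, of both sexes and 8 to 10 weeks old. They were either left unirradiated (Ctrl) or given a single local dose of 20 Gy (IR), and cells were taken 3 days after IR. From each condition 3 pools of cells from 5 mice were lysed, a part of the lysate was kept as Input, and the rest went into RNA immunoprecipitation with an anti-YTHDF2 antibody (IP), giving 12 libraries in 4 groups of 3. The study calls the pools technical replicates, so the p-values below measure the spread between these libraries. The sorted cells are a mixture of neutrophils, monocytes, macrophages and dendritic cells, and in such bulk samples fewer cells of a type and less RNA per cell cannot be told apart.

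Inflammasomes are cytosolic complexes that form when a sensor protein detects microbial products or cell damage. The sensor gathers the adaptor ASC, the product of *Pycard*, which recruits caspase-1, and the active caspase matures interleukin-1β and interleukin-18 and cuts gasdermin D, whose freed part forms pores in the plasma membrane and causes the lytic death called pyroptosis. Myeloid cells are the main site of this pathway, and YTHDF2 is a cytosolic reader of N6-methyladenosine (m6A) that directs bound mRNAs to decay.

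m6A is deposited mainly in a short consensus whose most common core is GGACT, so the members' transcripts were searched for it on the sense strand. For the members that have one, the last copy whose printed window lay wholly in the coding part of a single exon is shown in its context. Later copies with a window across an exon junction or the end of the coding sequence were passed over. The distance of the printed copy to the end of the coding sequence ran from 59 bases for *Pycard* to 1891 bases for *Naip5*. m6A is known to gather near the stop codon. Each line gives 25 bases of the longest coding transcript of GENCODE M21, 5′ to 3′, with the searched core in capitals. A match is a description of the letters only, and m6A at these positions was not analysed here.
Nlrp3: ttctgcacccGGACTgtaaactaca
Nlrp1b: gaaattctggGGACTgaagaagact
Nlrc4: ggggaccccaGGACTtgccaaactt
Naip5: ccaagatcttGGACTttattatttg
Pycard: tgacctgcaaGGACTccctcctcca
Casp1: cacatttccaGGACTgactgggacc
Casp4: acgtggagaaGGACTtcattgcctt
Gsdmd: tgctccttggGGACTgctgggatga

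In mm10 the window of *Nlrp3* lies at chr11:59565177-59565201 on the plus strand in exon 8 of 10, that of *Gsdmd* at chr15:75867061-75867085 on the plus strand in exon 11 of 11, and that of *Pycard* at chr7:127992764-127992788 on the minus strand in exon 3 of 3. The window of *Casp1* lies at chr9:5302448-5302472 in exon 4 of 10 and that of *Casp4* at chr9:5327278-5327302 in exon 6 of 9, both on the plus strand. On the minus strand lie those of *Nlrp1b* at chr11:71165628-71165652 in exon 8 of 15, *Nlrc4* at chr17:74433781-74433805 in exon 8 of 9 and *Naip5* at chr13:100222399-100222423 in exon 9 of 14. No copy lay in the coding sequence of *Aim2* or *Nek7*: the 4 copies of *Aim2* were 3 before and 1 after it, and the 6 copies of *Nek7* were all after it. Of 21853 coding genes, 87.7% held at least 1 copy over the whole transcript, with a median of 1.01 per kb and quartiles of 0.562 and 1.50. The members spread across this range. *Nlrp3* with 8 copies (1.99 per kb) and *Nlrc4* with 9 copies (1.90 per kb) stood at percentiles 87.8 and 86.2 of coding genes, and *Aim2* at 71.2. *Nlrp1b* with 2 copies (0.484 per kb) and *Gsdmd* with 1 copy (0.558 per kb) stood at percentiles 21.2 and 24.8.

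Counts on genes summed to 34445784 to 42382532 in the Inputs and 27852948 to 33882664 in the IPs, and 3 counts, the level taken as detectable, were worth 0.0737 to 0.112 CPM (counts of a gene scaled to a common library total). The share of aligned reads on no gene averaged 27.0% for Ctrl and 24.7% for IR among the Inputs, and 42.3% for Ctrl and 51.4% for IR among the IPs. *Ythdf2* itself stood at 58.0 ± 0.47 CPM in the Input of Ctrl and 51.5 ± 3.81 in that of IR (SD, n = 3). All 8 neutrophil, 5 monocyte and 8 macrophage markers were above 1 CPM in both Input groups, while the 8 T and NK cell markers summed to at most 2.05 CPM there and the 4 B cell markers to 18.6 to 27.8 CPM. The 5 epithelial markers summed to 119 to 127 CPM in Ctrl and 90.9 to 96.9 CPM in IR among the Inputs, nearly all of it from *Cdh1*, while *Krt19* was at 0 in every library.

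By level per summed exon length, *Gsdmd* was the most abundant member and *Casp4* the least abundant in the Ctrl Inputs. CPM below are on the TMM scale of all 12 libraries, and CPM per kb divides them by the summed exon length of the gene. That length joins the exons of all transcripts, and for *Casp4* it was 3710 bases against 1435 in its longest coding transcript. It was also longer for *Nlrp1b* (6305 against 4134), *Nek7* (7376 against 5258), *Aim2* (3501 against 2839) and *Gsdmd* (2377 against 1792). Places in the order, among them that of *Casp4*, therefore depend on the length used. Each fit was scaled on its own libraries, which moved the log2 changes against those of the CPM by −0.079 for IR against Ctrl in the Input, 0.013 in the IP, 0.076 for IP over Input in Ctrl and 0.057 in IR. *Gsdmd* stood at 81.3 ± 0.67 CPM per kb (SD, n = 3), at percentile 96.8 of 14494 coding genes. *Nlrp3* followed at 34.4 ± 0.73, *Pycard* at 32.4 ± 0.97 and *Aim2* at 20.3 ± 1.16 CPM per kb, and the libraries of these neighbours did not overlap. *Casp1* at 13.1 ± 0.82 and *Naip5* at 12.7 ± 0.61 overlapped, as did the neighbours among *Nek7* at 7.31 ± 0.093, *Nlrc4* at 6.97 ± 0.64 and *Nlrp1b* at 6.38 ± 0.40. *Casp4* closed the order at 5.50 ± 0.067 CPM per kb, at percentile 57.5. In the IR Inputs *Pycard* moved up, at 58.9 ± 0.80 CPM per kb above *Nlrp3* at 33.4 ± 1.04, and *Nlrp1b* at 12.6 ± 0.36 moved above *Nlrc4* at 7.99 ± 0.18 and *Nek7* at 7.53 ± 0.15.

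**Figure D1:**
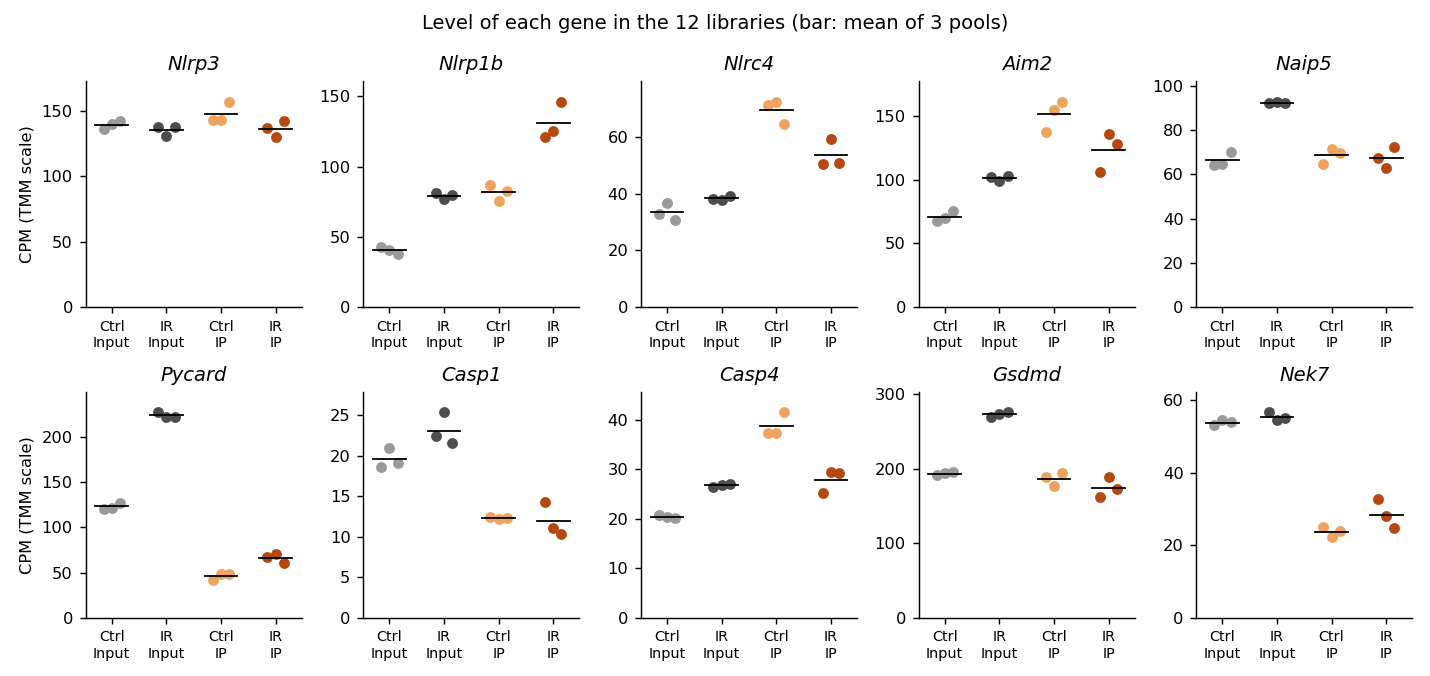
CPM on the TMM scale (vertical axis, from 0) of the 10 members in the Ctrl Input, IR Input, Ctrl IP and IR IP libraries; points are the 3 pools of a group and bars their mean. *Pycard* shows Inputs of 120 to 227 CPM far above IPs of 41.4 to 70.2 CPM, and *Casp4* shows Ctrl IPs above every other group.

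In the IP libraries the order was different. *Gsdmd* remained first, at 78.5 ± 3.87 CPM per kb in Ctrl and 73.5 ± 5.45 in IR (SD, n = 3), and *Aim2* took the second place at 43.3 ± 3.51 and 35.3 ± 4.37, in IR with libraries that overlapped those of *Nlrp3* at 33.6 ± 1.52. *Pycard* came down to the seventh place in the Ctrl IPs at 12.1 ± 1.02 CPM per kb, where the libraries of *Nlrc4*, *Naip5*, *Nlrp1b*, *Pycard* and *Casp4* overlapped from each to the next. *Nek7* was last in both, at 3.22 ± 0.19 and 3.86 ± 0.54.

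The ratio of IP to Input asks which transcripts were recovered in the YTHDF2 IP beyond their abundance. No IP with a control antibody or from cells without *Ythdf2* is among these libraries. Recovery with YTHDF2 and other differences between IP and Input libraries therefore cannot be told apart. In Ctrl, 5 of the 10 members were higher in the IP than in the Input (*Nlrp3*, *Nlrp1b*, *Nlrc4*, *Aim2* and *Casp4*) and 3 were lower (*Pycard*, *Casp1* and *Nek7*), by the quasi-likelihood test of edgeR, with p-values adjusted after Benjamini and Hochberg over all genes tested. Of all 17416 genes tested, 34.1% were called higher and 34.6% lower, so neither count is read as particular to the members. The median log2 fold change of the members was 0.14 and that of all genes tested 0.018. In IR, 3 members were higher (*Nlrp1b*, *Nlrc4* and *Aim2*) and 5 were lower (*Pycard*, *Casp1*, *Gsdmd*, *Naip5* and *Nek7*), against 32.1% of 18650 genes called higher and 30.4% called lower. The median of the members was −0.17 on the log2 scale and that of all genes tested 0.10.

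Whether IP over Input differed between IR and Ctrl was tested with an interaction term fitted to all 12 libraries. It was lower in IR for 6 members, *Casp4*, *Aim2*, *Gsdmd*, *Nlrc4*, *Naip5* and *Pycard*, and higher for 0 of 10 (edgeR, with 0 higher also at an unadjusted p under 0.05; DESeq2 called 0 higher, with 1 at an unadjusted p under 0.05). The background was 13.9% of 20720 genes called lower and 6.28% called higher. The filter admits genes with far fewer counts than the members, so these shares are not matched for level. The median of the members was −0.42 on the log2 scale, and that of all genes tested −0.083. This split depended on the scaling. With library size only in place of TMM the median of all genes moved by 0.31, the background became 4.23% lower and 13.8% higher, and 3 members were lower (*Aim2*, *Casp4* and *Gsdmd*) and 2 higher (*Nek7* and *Nlrp3*). Relative to the median of all genes, the members' values differed by at most 0.0035 between both scalings. A change of scaling moves all genes by nearly the same amount, so this does not show which scaling is right. The IR IPs also had the largest share of reads on no gene, given above, and its part in these differences was not tested.

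**Figure D2:**
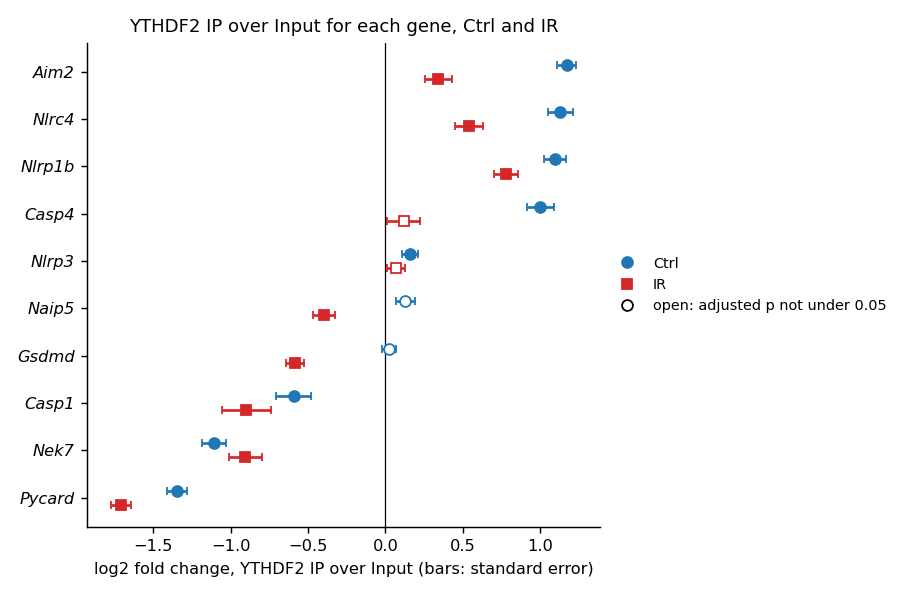
Log2 fold change of YTHDF2 IP over Input (horizontal axis) for each member in Ctrl (circles) and IR (squares), with the standard error of the edgeR fit as bars and open symbols for adjusted p not under 0.05. *Aim2*, *Nlrc4*, *Nlrp1b* and *Casp4* lie at 1.0 to 1.17 in Ctrl and at 0.12 to 0.78 in IR, and *Pycard* is the lowest in both at −1.35 and −1.71.

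Among the 5 member sensors, *Aim2* (ENSMUSG00000037860, chr1:173350879-173466040, plus strand, mm10), which binds double-stranded DNA in the cytosol, had the highest fold over Input in Ctrl. Its Ctrl Inputs read 67.6, 70.0 and 75.5 CPM and its Ctrl IPs 138, 155 and 162 CPM. The IPs lay above the Inputs without overlap, a 2.25-fold difference (log2 fold change 1.17, SE 0.063, adjusted p = 1.85e-11, edgeR). In IR the Inputs read 102, 99.0 and 103 CPM and the IPs 107, 136 and 128 CPM. They did not overlap either, but the lowest IP, pool 1, was close to the Inputs, and the difference was 1.27-fold (log2 fold change 0.34, SE 0.084, adjusted p = 0.00444). IP over Input was thus lower in IR by an interaction of −0.80 (SE 0.11, adjusted p = 2.47e-05), a call kept under all 19 alternatives (other scalings, filters and tools, the replicate block, and each library left out; a 2-fold minimum, which none of the 6 interaction calls met, is counted neither here nor in such counts of alternatives further on), where it ranged from −0.86 to −0.49. *Aim2* rose in the Input from Ctrl to IR (log2 fold change 0.44, SE 0.044, adjusted p = 5.12e-09) and was lower in the IP (log2 fold change −0.28, SE 0.090, adjusted p = 0.0443). The last call was lost under 7 of 14 alternatives, among them library size only at −0.075 and the fits without IR IP pool 1 at −0.17, without Ctrl IP pool 3 at −0.23, without Ctrl IP pool 2 at −0.26 and without IR IP pool 3 at −0.30.

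*Nlrc4* (ENSMUSG00000039193, chr17:74425438-74459142, minus strand) encodes the NLR that assembles on NAIP proteins bound to bacterial flagellin or secretion system components. It read 32.8, 36.9 and 30.8 CPM in the Ctrl Inputs and 71.3, 72.6 and 64.7 CPM in the Ctrl IPs. All IPs were above all Inputs, by 2.19-fold (log2 fold change 1.13, SE 0.079, adjusted p = 7.26e-10, edgeR). In IR the Inputs were 38.0, 37.8 and 39.4 CPM and the IPs 50.6, 59.5 and 50.7 CPM, again without overlap, a log2 fold change of 0.54 (SE 0.091, adjusted p = 3.90e-04). The interaction was −0.57 (SE 0.12, adjusted p = 0.00231), and −0.26 with library size only, where the call was lost. Between IR and Ctrl its Input values did not pass the test (log2 fold change 0.12, 95% interval −0.0083 to 0.24, adjusted p = 0.144), and without Ctrl Input pool 2 the log2 fold change was 0.19 and passed. Its IP values were lower in IR (log2 fold change −0.36, SE 0.099, adjusted p = 0.0194). This call was lost with library size only (−0.16) and without Ctrl IP pool 1 (−0.34), Ctrl IP pool 2 (−0.33) or IR IP pool 3 (−0.31).

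*Naip5* (ENSMUSG00000071203, chr13:100211739-100246323, minus strand) encodes the receptor that binds flagellin upstream of NLRC4. It has paralogs such as *Naip6* and *Naip2*, so its counts are uncertain to the extent that shared reads were split or dropped. The Ctrl Inputs read 64.0, 64.8 and 69.8 CPM and the Ctrl IPs 64.9, 71.3 and 69.8 CPM. These groups overlapped, and the log2 fold change was 0.13 (95% interval 0.0044 to 0.25, unadjusted p = 0.0589, adjusted p = 0.0819, edgeR). It passed the test under 5 of 14 alternatives, for example with DESeq2 at 0.15 and without Ctrl IP pool 1 at 0.20. In IR the Inputs were 92.2, 92.9 and 92.2 CPM and the IPs 67.3, 62.8 and 72.2 CPM. Every IR Input lay above every IR IP, and the log2 fold change was −0.40 (SE 0.071, adjusted p = 5.61e-04). The interaction was −0.50 (SE 0.096, adjusted p = 6.48e-04) and −0.19 with library size only, no longer called. The Input rose with IR by a log2 fold change of 0.40 (SE 0.043, adjusted p = 1.72e-08), whereas the IP values overlapped between IR and Ctrl (log2 fold change −0.014, 95% interval −0.19 to 0.16, adjusted p = 0.944).

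*Nlrp1b* (ENSMUSG00000070390, chr11:71153102-71230733, minus strand), a sensor activated by inhibitors of the peptidases DPP8 and DPP9, rose with IR in both fractions. Its Inputs read 42.5, 40.7 and 37.5 CPM in Ctrl and 81.1, 76.7 and 79.7 CPM in IR. Its IPs read 86.9, 75.3 and 82.6 CPM in Ctrl and 121, 125 and 146 CPM in IR. Neither pair of groups overlapped. The rise was 1.86-fold in the Input (log2 fold change 0.90, SE 0.052, adjusted p = 1.06e-13) and 1.62-fold in the IP (log2 fold change 0.69, SE 0.088, adjusted p = 3.71e-05, edgeR). IP over Input was 2.14-fold in Ctrl (log2 fold change 1.10, SE 0.072, adjusted p = 3.03e-10) and 1.72-fold in IR (log2 fold change 0.78, SE 0.078, adjusted p = 6.50e-06). The difference between them did not pass the test (interaction −0.29, 95% interval −0.51 to −0.080, adjusted p = 0.0665), and it passed without IR IP pool 3 at −0.31 and without the filter on low counts at −0.32. *Nlrp1b* also has a paralog, *Nlrp1a*, so its counts are uncertain to the extent that reads shared with it were split or dropped.

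*Nlrp3* (ENSMUSG00000032691, chr11:59541568-59566956, plus strand), the sensor of potassium efflux and many forms of membrane damage, had small differences in each comparison. Its Inputs read 136, 140 and 142 CPM in Ctrl and 138, 131 and 138 CPM in IR. Its IPs read 143, 143 and 157 CPM in Ctrl and 137, 130 and 142 CPM in IR. In Ctrl every IP was above every Input by a small margin, and IP over Input was 1.12-fold (log2 fold change 0.16, SE 0.049, adjusted p = 0.00941, edgeR). That call was lost under 5 of 14 alternatives: the fit with all libraries gave 0.083, no filter on low counts 0.043, library size only −0.027, and the fits without Ctrl Input pool 1 or pool 2 gave 0.13 and 0.14. In IR the fractions overlapped, with a log2 fold change of 0.067 (95% interval −0.048 to 0.18, adjusted p = 0.341), which passed under 4 of 14 alternatives, namely library size only at 0.22, nuclear protein-coding genes only at 0.20, at least 10 counts in every library at 0.19 and without IR IP pool 2 at 0.18. The interaction was −0.069 (95% interval −0.22 to 0.083, adjusted p = 0.615) and 0.24, called higher, with library size only. In the Input *Nlrp3* was lower in IR by a log2 fold change of −0.12 (SE 0.037, adjusted p = 0.00873), although libraries of both groups overlapped, and the call was lost without IR Input pool 2 (−0.093) and in the fit with all libraries (−0.043). For the IP the change was −0.10 (95% interval −0.24 to 0.034, adjusted p = 0.372).

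*Nek7* (ENSMUSG00000026393, chr1:138482875-138620141, minus strand) encodes the kinase that binds NLRP3 and licenses its assembly. It was lower in the IP than in the Input in both conditions. Its Inputs read 53.1, 54.5 and 54.1 CPM in Ctrl and 56.7, 54.6 and 55.3 CPM in IR, and its IPs 25.1, 22.3 and 23.8 CPM in Ctrl and 32.7, 28.01 and 24.8 CPM in IR. No IP reached an Input of its condition. IP over Input was a log2 fold change of −1.11 in Ctrl (SE 0.077, adjusted p = 6.19e-10) and −0.90 in IR (SE 0.11, adjusted p = 2.91e-05, edgeR). The interaction was 0.22 (95% interval −0.038 to 0.48, adjusted p = 0.283), and it was called higher with library size only (0.54) and without IR IP pool 3 (0.38). The change with IR in the Input did not pass (log2 fold change −0.036, 95% interval −0.13 to 0.057, adjusted p = 0.576), while the CPM means were 53.9 in Ctrl and 55.5 in IR, and the fit with all libraries gave 0.043. In the IP the libraries overlapped between conditions (log2 fold change 0.27, 95% interval −0.0019 to 0.55, adjusted p = 0.217). The antisense gene *Gm28501* shares 118 bases with its exons, 1.6% of their length.

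The adaptor gene *Pycard* (ENSMUSG00000030793, chr7:127989708-127993867, minus strand), whose coding window is printed above, had the lowest IP over Input of the members. Its Inputs read 120, 122 and 127 CPM in Ctrl and 227, 222 and 222 CPM in IR. Its IPs read 41.4, 48.4 and 47.8 CPM in Ctrl and 66.9, 70.2 and 60.2 CPM in IR. IR libraries were above Ctrl libraries in both fractions, and Inputs were above IPs in both conditions, with no overlap in any of these pairs. IP over Input was 0.393-fold in Ctrl (log2 fold change −1.35, SE 0.065, adjusted p = 4.09e-12) and 0.306-fold in IR (log2 fold change −1.71, SE 0.066, adjusted p = 2.49e-09, edgeR). From Ctrl to IR it rose 1.72-fold in the Input (log2 fold change 0.78, SE 0.035, adjusted p = 6.51e-16) and 1.45-fold in the IP (log2 fold change 0.53, SE 0.10, adjusted p = 0.00182). The interaction of −0.34 (SE 0.095, adjusted p = 0.0144) was lost under 6 of 19 alternatives, with −0.025 for library size only, −0.26 for nuclear protein-coding genes only, −0.23 for at least 10 counts in every library, −0.23 and −0.25 without Ctrl IP pool 2 and pool 3, and −0.21 without IR IP pool 3. The gene model shares 485 exon bases, 12.8% of its length, with *Gm45205* on the opposite strand, so part of its reads could be uncounted or shared, depending on the strand setting of the counting.

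*Casp1* (ENSMUSG00000025888, chr9:5298517-5307265, plus strand) encodes the caspase that inflammasomes activate, and it was the member with the fewest counts. Its Inputs read 18.6, 20.98 and 19.2 CPM in Ctrl and 22.4, 25.4 and 21.6 CPM in IR. Its IPs read 12.5, 12.2 and 12.3 CPM in Ctrl and 14.3, 11.1 and 10.3 CPM in IR. Inputs exceeded IPs in both conditions without overlap, with log2 fold changes of IP over Input of −0.59 in Ctrl (SE 0.11, adjusted p = 1.36e-04) and −0.90 in IR (SE 0.16, adjusted p = 5.16e-04, edgeR). The interaction was −0.28 (95% interval −0.66 to 0.092, adjusted p = 0.351) and 0.031 with library size only. IR Inputs all lay above Ctrl Inputs, yet the log2 fold change of 0.16 (95% interval 0.0027 to 0.32) did not pass the test. Its p was 0.0570 before adjustment and 0.110 after it (edgeR). The IPs overlapped between conditions (log2 fold change −0.035, 95% interval −0.41 to 0.34, adjusted p = 0.934).

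*Casp4* (ENSMUSG00000033538, chr9:5308828-5336783, plus strand), the mouse gene for caspase-11, which binds cytosolic lipopolysaccharide directly, lies next to *Casp1* on the same strand. Its Inputs read 20.7, 20.4 and 20.2 CPM in Ctrl and 26.3, 26.8 and 27.1 CPM in IR. Its IPs read 37.4, 37.4 and 41.5 CPM in Ctrl and 25.1, 29.4 and 29.1 CPM in IR. Thus the Ctrl IPs were above all other libraries, and in IR the fractions overlapped. IP over Input was 2.0-fold in Ctrl (log2 fold change 1.0, SE 0.085, adjusted p = 1.03e-08, edgeR). In IR it was 0.12 on the log2 scale (95% interval −0.094 to 0.33, adjusted p = 0.364), and 0.27 and past the test without IR IP pool 1 or with library size only. Its interaction of −0.86 (SE 0.14, adjusted p = 9.73e-05) was kept under the same 19 alternatives, though not with a 2-fold minimum, from −0.88 to −0.55. The Input rose with IR (log2 fold change 0.31, SE 0.070, adjusted p = 5.97e-04) and the IP fell (log2 fold change −0.46, SE 0.12, adjusted p = 0.0152), the latter call being lost with library size only (−0.26) and without Ctrl IP pool 3 (−0.41).

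*Gsdmd* (ENSMUSG00000022575, chr15:75862327-75867408, plus strand), the pore-forming effector of pyroptosis, went from no difference past the test in Ctrl to depletion from the IP in IR. Its Inputs read 192, 193 and 195 CPM in Ctrl and 270, 273 and 276 CPM in IR, groups that lay far apart. Its IPs read 189, 176 and 194 CPM in Ctrl and 163, 188 and 173 CPM in IR, groups that overlapped. In Ctrl the fractions overlapped too, with a log2 fold change of 0.024 (95% interval −0.065 to 0.11, adjusted p = 0.655, edgeR), which was 0.12 and called higher among nuclear protein-coding genes only and −0.16 and called lower with library size only. In IR all Inputs were above all IPs, at 0.666-fold (log2 fold change −0.59, SE 0.057, adjusted p = 5.42e-06). The interaction of −0.59 (SE 0.075, adjusted p = 8.55e-06) was kept under the same 19 alternatives, though not with a 2-fold minimum, from −0.63 to −0.28. From Ctrl to IR the Input rose 1.34-fold (log2 fold change 0.42, SE 0.032, adjusted p = 3.04e-11), and the IP changed by −0.083 (95% interval −0.22 to 0.054, adjusted p = 0.488).

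How IR changed transcript abundance was asked by comparing the Inputs alone. Of the 10 members, 6 were higher in IR (*Nlrp1b*, *Pycard*, *Aim2*, *Gsdmd*, *Naip5* and *Casp4*) and 1 was lower (*Nlrp3*), where 21% of 16914 genes tested were called higher and 23.9% lower (edgeR). These shares are not matched for level either. The median of the members was 0.36 on the log2 scale, and that of all genes tested 0.0072. Among all genes tested *Nlrp1b* stood at percentile 96.5 and *Pycard* at 95.3. In the IP, 2 members were higher in IR (*Nlrp1b* and *Pycard*) and 3 lower (*Nlrc4*, *Aim2* and *Casp4*), where 6.12% of 19255 genes were called higher and 9.85% lower. With library size only these became 3 higher (*Nlrp1b*, *Pycard* and *Nek7*) and 0 lower (1 lower at an unadjusted p under 0.05, by edgeR), as the median of all genes moved by 0.20. DESeq2 gave the same split as edgeR with TMM.

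**Figure D3:**
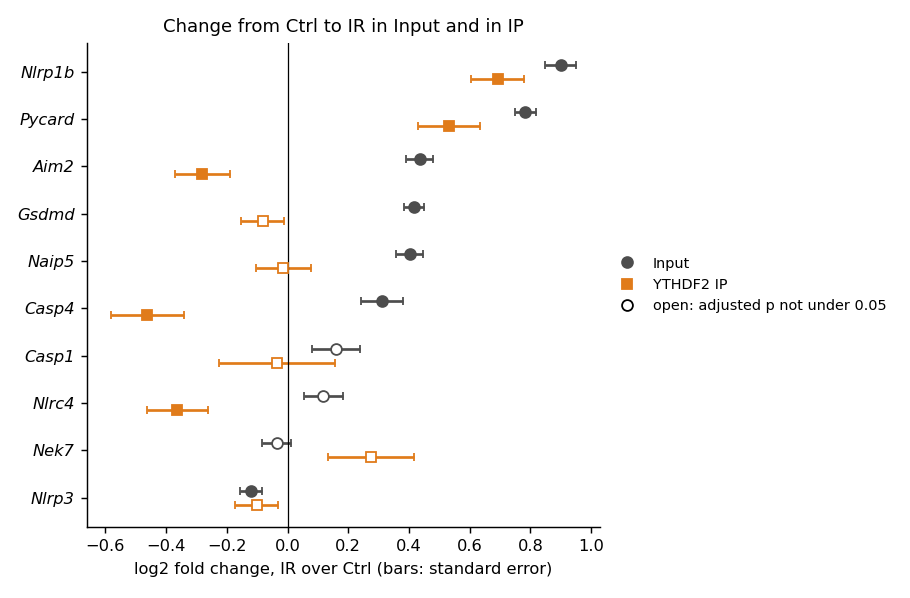
Log2 fold change from Ctrl to IR (horizontal axis) in the Input (circles) and in the YTHDF2 IP (squares) for each member, with the standard error of the edgeR fit as bars and open symbols for adjusted p not under 0.05. *Nlrp1b* and *Pycard* lie to the right in both fractions, at 0.53 to 0.90, whereas *Aim2* and *Casp4* lie to the right in the Input at 0.44 and 0.31 and to the left in the IP at −0.28 and −0.46.

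Markers of the sorted cell types moved with IR in the same Inputs. The 8 neutrophil markers summed to 6144 to 6857 CPM in Ctrl and 8602 to 9304 CPM in IR. The sum of the 5 monocyte markers went from 1560 to 1653 CPM in Ctrl up to 1797 to 1918 CPM in IR, and that of the 6 dendritic cell markers from 224 to 228 up to 267 to 273 CPM. The 8 macrophage markers summed to 217 to 221 CPM in Ctrl and 189 to 200 CPM in IR. None of these ranges overlapped between Ctrl and IR. The sums rest on few genes, and single markers differed in direction: 5 of the 8 neutrophil markers were higher and 1 lower in IR, 3 and 1 of the 5 monocyte markers, 2 and 2 of 5 dendritic cell markers tested, and 4 and 3 of the 8 macrophage markers (edgeR). Of all genes tested, 21% were called higher and 23.9% lower. *Chil3* made up most of the monocyte sum and *Ccr7* most of the dendritic cell sum, and the monocyte marker *Plac8* fell from 44.3 to 26.8 CPM. Their part in the members' Input changes was not tested.

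Other genes of the pathway were taken from 4 lists. The list of IL-1 family output held 6 genes, *Il1a*, *Il1b* and *Il18*, which encode the cytokines, and *Il1rn*, *Il18bp* and *Il1r2*, which encode antagonists or decoys. All 6 were lower in the IP than in the Input in Ctrl, with a median log2 fold change of −0.69, and 5 of 6 were lower in IR, with a median of −0.89, against medians of all genes of 0.018 and 0.10. Of all genes tested, 34.6% were called lower in Ctrl and 30.4% in IR. The list was not tested as a set. *Il1rn* had log2 fold changes of −1.59 in Ctrl (SE 0.069, adjusted p = 1.03e-12) and −1.83 in IR (SE 0.058, adjusted p = 5.99e-10), and *Il1b* −0.68 (SE 0.14, adjusted p = 2.81e-04) and −0.80 (SE 0.12, adjusted p = 1.72e-04, edgeR). *Il1r2* had −0.36 (SE 0.068) and −0.59 (SE 0.079), both past the test. For the interaction 0 of 6 passed in either direction with edgeR or DESeq2, and 1 of 6, *Il1rn* at −0.22, had an unadjusted p under 0.05 with edgeR.

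Of 15 other sensors of the NLR and related families, 12 could be tested for IP over Input, and 6 were higher and 4 lower in Ctrl, 5 higher and 3 lower in IR. These counts and those of the next lists stand beside the 34.1% of all genes called higher and 34.6% called lower in Ctrl, and the 32.1% and 30.4% in IR, and nothing is read from them as particular to a list. *Nlrx1*, a mitochondrial NLR, had log2 fold changes of 0.85 in Ctrl (SE 0.074, adjusted p = 1.46e-08) and 0.54 in IR (SE 0.11, adjusted p = 0.00158, edgeR). *Nod1*, a receptor for bacterial peptidoglycan, had 0.49 in Ctrl (SE 0.075, adjusted p = 1.59e-05) and 0.15 in IR (adjusted p = 0.232), which passed the test under 5 alternatives at 0.27 to 0.30. *Naip2*, which binds the rod protein of bacterial secretion systems, was lower, at −0.73 (SE 0.12, adjusted p = 2.29e-05) and −0.39 (SE 0.10, adjusted p = 0.00695, edgeR). Its call in IR was lost with library size only (−0.24) and among nuclear protein-coding genes only (−0.25). Reads shared with its paralogs make its counts uncertain. Of 14 tested, 2 had an interaction lower in IR, *Nlrp10* and *Nod2*, and 0 higher by edgeR (3 at an unadjusted p under 0.05, and 1 called with DESeq2). These 2 were named after their values were seen, at −0.73 and −0.78.

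The list of cell death partners had 10 of its 11 genes tested, of which 4 were higher and 4 lower in Ctrl, and 1 higher and 4 lower in IR. *Casp8*, which links death receptors to apoptosis and can cut gasdermin D, had log2 fold changes of IP over Input of −0.77 in Ctrl (SE 0.053, adjusted p = 4.94e-10) and −1.05 in IR (SE 0.070, adjusted p = 2.19e-07, edgeR). *Ninj1*, whose product ruptures the plasma membrane after pores have formed, was higher in the IP in Ctrl at 0.34 (SE 0.074, adjusted p = 6.22e-04), though not with library size only (0.15), and stood at −0.035 in IR (adjusted p = 0.672). Its sign in IR turned under 5 other settings of scaling, filter or tool and without any 1 of the IR IP pools.

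Of 29 triggers and regulators of inflammasomes, 26 were tested, and 9 were higher and 15 lower in the IP in Ctrl, 8 higher and 15 lower in IR, with medians of −0.58 and −0.54 on the log2 scale. *Eif2ak2*, the kinase PKR, had the highest value of the list in Ctrl with a log2 fold change of 2.21 (SE 0.049, adjusted p = 1.01e-16), and 1.48 in IR (SE 0.057, adjusted p = 2.50e-09, edgeR). *Serpinb1a*, an inhibitor of neutrophil proteases and of inflammatory caspases, stood at −0.99 (SE 0.063, adjusted p = 1.86e-10) and −1.39 (SE 0.066, adjusted p = 1.32e-08). *Myd88*, the adaptor of Toll-like and IL-1 receptors, stood at −0.62 (SE 0.043, adjusted p = 6.37e-10) and −1.16 (SE 0.048, adjusted p = 4.74e-09). The interaction was lower in IR for 8 and higher for 3 of the 26. The interaction counts of these lists stand beside 13.9% of all genes called lower and 6.28% called higher. With library size only these shares became 4.23% and 13.8%. In the Inputs 11 of the 26 were higher and 7 lower in IR, where 21% of all genes were called higher and 23.9% lower. Nothing is read from these counts as particular to the list.

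**Figure D4:**
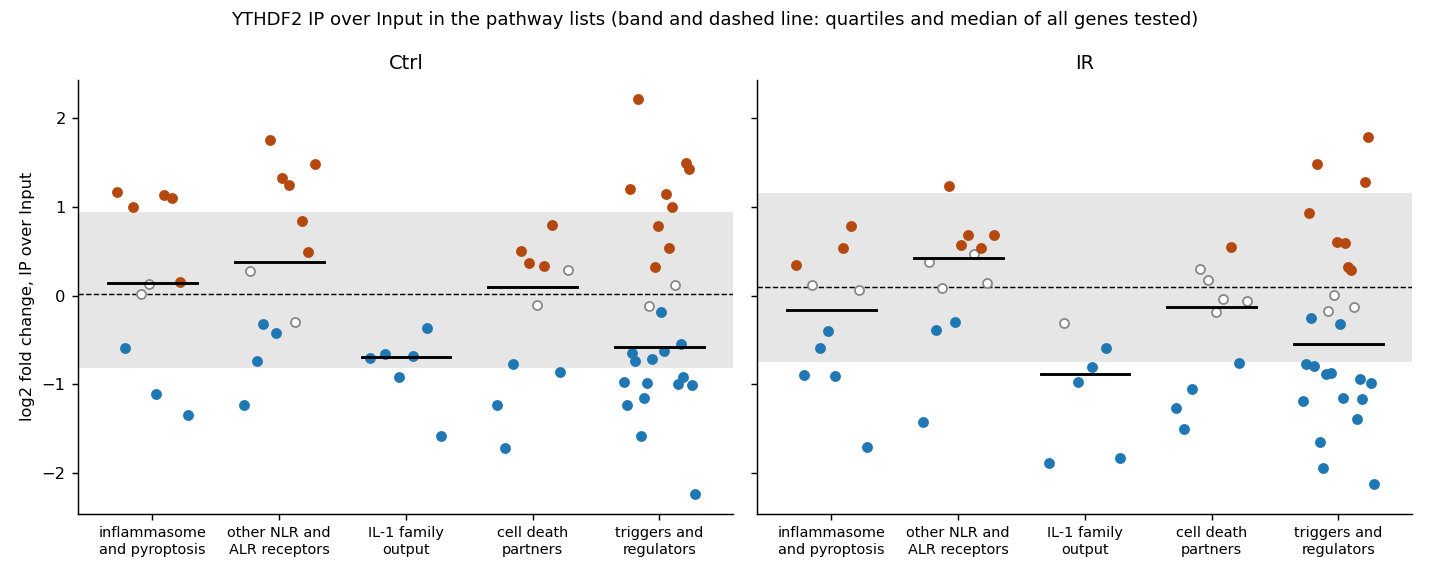
Log2 fold change of IP over Input (vertical axis) in Ctrl and IR for the tested genes of the 10 members and of the 4 pathway lists; filled points passed the test (orange higher, blue lower), open points did not, thick lines are list medians, and the grey band and dashed line are the quartiles and median of all genes tested. The IL-1 family output genes lie below 0 in both panels, with medians of −0.69 and −0.89.

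For the change with IR in the Inputs, of the other sensors 1 was higher and 1 lower in IR of 12 tested, of the IL-1 family output 2 were higher and 1 lower of 6, and of the cell death partners 3 were higher and 1 lower of 10, where 21% of all genes were called higher and 23.9% lower. *Il1b* rose by a log2 fold change of 0.30 (SE 0.083, adjusted p = 0.00483, edgeR), next to *Pycard* at 0.78 and *Gsdmd* at 0.42. *Naip2* fell by 0.44 on the log2 scale (SE 0.061, adjusted p = 1.12e-06), beside its relative *Naip5* at 0.40. No test of a difference between lists was made.

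The genes whose levels over the 12 libraries ran closest to each member were found as those with the smallest root mean square difference of log2 CPM, each gene centred on its own mean, among 10566 candidates. For *Nlrp3* this was *Stk40* at 0.0531, and for *Gsdmd* *Mrpl9* at 0.0613. *Casp4* was closest to *Paf1* at 0.0663, *Nek7* to *Add1* at 0.0672, *Nlrc4* to *Ergic2* at 0.0703 and *Aim2* to *Grik5* at 0.0777. *Naip5* was closest to *Slc25a38* at 0.0778, *Pycard* to *Siva1* at 0.0792 and *Casp1* to *Bola2* at 0.0815. *Nlrp1b* had the least close neighbour, *Ercc5* at 0.159.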

How the data were processed

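RIP-seq (RNA immunoprecipitation followed by sequencing) libraries of 3 pools per condition and fraction were grouped by their labels. The members and gene lists were chosen with earlier results of these data known. Per the study's methods and the submitters' processing notes, the authors trimmed reads with Trimmomatic 0.39, aligned them with HISAT 2.1.0 to mm10 with GENCODE M19, and deposited whole-number HTSeq counts per gene without normalization. The strand option of the counting is not given in the sources used here. On the antibody and RNA, the labels (Abcam, mRNA) differ from the methods (Aviva, total RNA).

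Symbols, exons and coordinates came from GENCODE M21, where 97.8% of identifiers were found with their version number and 99.9% when it was ignored for the rest. A gene entered a comparison with 10 or more counts in 3 or more of its libraries. Testing used edgeR 4.0.16 in R 4.3.3 (TMM scaling, quasi-likelihood F), with Benjamini-Hochberg adjustment over every gene tested and 0.05 as the threshold. SE was taken as |log2 fold change| over the root of F. IP and Input were compared within each condition, their interaction over all 12 libraries, and IR with Ctrl within each fraction. Reads carry no molecular identifiers, so the level of 3 counts covers counting error only.

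Alternatives were DESeq2 1.42.0, its size factors, library size only, nuclear protein-coding genes only, other filters, all libraries in one fit, a 2-fold minimum, the replicate block, and each library left out. Same-numbered IP and Input libraries are paired, since the methods take both from 1 lysate, although their deviations from the group means correlated at only −0.017 to 0.015 over 6 pairs. Beside the members, the text names the 3 genes of each list with the most CPM per kb and the gene nearest to each member, except for an item that is not reported here. The steps were tested on simulated counts in which only a small part of the genes changed. That run does not bear on the choice of scaling.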

Additional observations from a re-analysis of the deposited data

Results flagged for a closer look

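IP over Input differed between IR and Ctrl for 6 of the 10 members by the interaction term (edgeR, adjusted p under 0.05). It was lower in IR by −0.86 for *Casp4*, −0.80 for *Aim2*, −0.59 for *Gsdmd*, −0.57 for *Nlrc4*, −0.50 for *Naip5* and −0.34 for *Pycard* on the log2 scale. Of all genes tested, 13.9% were called lower in the same way, a share not matched for level. The Inputs of *Gsdmd*, *Naip5*, *Aim2*, *Casp4* and *Pycard* rose with IR, whereas in the IP *Gsdmd* and *Naip5* did not pass the test, *Aim2* and *Casp4* were lower and *Pycard* was higher. The calls of *Pycard*, *Nlrc4* and *Naip5* were lost with library size only.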

How the results depend on the processing

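The fit with the replicate block kept the call of all 50 values of the members (5 comparisons of 10 genes), with 6 members lower in the interaction as without it. For IR against Ctrl the block joined pools that share only a number and come from different mice. There it is no check of a pairing. Requiring at least 2-fold changes left 3625 higher and 3232 lower genes for IP over Input in Ctrl and 4102 higher and 3104 lower in IR. It left 589 and 270 in the interaction, 344 and 674 for IR against Ctrl in the Input and 571 and 135 in the IP. Of the members it left 3 higher in Ctrl, with *Pycard* (−1.35) and *Nek7* (−1.11) still lower there. In IR it left 0 higher and 1 lower, and 0 in each other comparison. Library size only gave 5 members higher for IP over Input in IR, 2862 genes higher and 877 lower in the interaction (2 and 3 members), and 2665 and 828 for IR against Ctrl in the IP (0 members lower). It moved the members' median level to 15.8 CPM per kb in the Input of IR, and 12.5 and 16.6 in the IP of Ctrl and IR. It also turned the sign of *Nlrp3* (−0.027), *Gsdmd* (−0.16) and *Naip5* (−0.057) in Ctrl, of *Nlrp3* (0.24), *Nlrp1b* (0.016) and *Casp1* (0.031) in the interaction, of *Nlrp3* (0.10), *Casp1* (0.17), *Gsdmd* (0.12) and *Naip5* (0.19) for IR against Ctrl in the IP, and of *Ninj1* (0.12) in IR. With all libraries in one fit, 1500 genes were lower in IR in the Input (0 members), 2125 were higher and 2952 lower in the IP, *Gsdmd* stood at −0.051 in Ctrl and *Nek7* at 0.043 in the Input. Without the filter *Gsdmd* stood at −0.091 in Ctrl, and *Nlrp3* at −0.070 and *Casp4* at −0.019 in IR. With at least 10 counts in every library, *Ninj1* stood at 0.087 in IR, *Nlrp3* at 0.042 in the interaction, and *Casp1* at 0.018 and *Naip5* at 0.039 in the IP. Among nuclear protein-coding genes only, *Ninj1* stood at 0.099, *Nlrp3* at 0.0098 in the interaction and *Naip5* at 0.013 in the IP, and with DESeq2 or its size factors *Ninj1* at 0.013. The cause of these shifts was not tested.
With each library left out in turn, the count of genes higher in IR in the IP ran from 715 to 1056 and that of members lower there from 1 to 3, members lower in the Input from 0 to 1 and members higher in the interaction from 0 to 1. The ranges that crossed 0 were −0.078 to 0.073 for *Ninj1* in IR, −0.096 to 0.041 for *Nlrp3* in the interaction, and −0.18 to 0.067 for *Casp1* and −0.055 to 0.046 for *Naip5* for IR against Ctrl in the IP.

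The IPs had the shallower libraries and the wider spread between pools, and single IP pools of both conditions decided several calls, as given beside them. TMM takes most genes as unchanged, so it cannot show binding that shifted for the bulk of transcripts, and the interaction split depends on that. The pools of a condition are called technical replicates, so differences between mice were not measured.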
